A study of Mus musculus with 6 samples.

Results

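The genes for the proteins of the cytosolic ribosome were followed in whole brown adipose tissue of mice that lack the transcription factor Yin Yang 1 in brown adipocytes. Members were all Affymetrix probe sets with a single gene symbol in the platform annotation that starts with Rpl or Rps and a digit, or with Rplp, without the S6 kinase symbols (Rps6k) and without symbols marked as pseudogenes. This gave 98 probe sets of 47 genes, among 22626 probe sets and 12393 genes. Of these genes 41 encode canonical ribosomal proteins, 22 of the large and 19 of the small subunit, and 6 encode paralogs (Rpl3l, Rpl7l1, Rpl22l1, Rpl39l, Rps4l and Rps27l). The 41 are part of a list of 76 canonical genes. Many other ribosomal protein probe sets also name pseudogenes and so have no single symbol. No probe set of Rps19bp1 was among the members.

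Mice homozygous for a floxed Yy1 allele were used throughout. The 3 YY1bKO arrays are from such mice that also carry Ucp1Cre, and for the 3 control arrays the design text lists the floxed alleles alone. All were 3.5 months old, on a mixed C57BL6 and 129 background, and had received high fat food for 3 months. Cre from the Ucp1 promoter acts in brown adipocytes, so endothelial, immune and other cells of the tissue keep Yy1, and the arrays read the sum of all cells. In such bulk samples fewer cells of a type and less RNA per cell cannot be told apart. The labels do not say whether replicates are single or pooled animals, so the p-values rest on sample-to-sample spread that may be technical.

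A ribosome is built from ribosomal RNA and one copy of almost every ribosomal protein, so that cells make these proteins in matched amounts. Their mRNAs are abundant and short and start with a terminal oligopyrimidine tract, through which the growth-regulating kinase complex mTORC1 controls their translation. Some ribosomal proteins have additional roles: RPL5 and RPL11 bind and inhibit MDM2, the ubiquitin ligase of p53, when ribosome assembly is disturbed. Brown adipocytes make large amounts of protein and mitochondria when they are active, and Yin Yang 1 is known to bind many ribosomal protein promoters in mammalian cells.

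Values are log2 intensities after the authors' RMA processing, which usually gives all arrays a common distribution and shrinks the differences of dim probe sets. Of 4 Yy1 probe sets 3 were called lower, at -1.71, -1.43 and -0.81, and a dim one gave -0.06 (limma adjusted p = 0.766). The second of these read 8.38, 8.41 and 8.38 in YY1bKO arrays, against 9.90, 9.62 and 9.95 in control arrays, with a log2 fold change of -1.43 ± 0.11 (SE, limma adjusted p = 0.000887). Ucp1, which marks brown adipocytes, averaged 13.78 in YY1bKO and 13.92 in control tissue. Of 6 brown adipocyte markers 1 was called higher, Elovl3, at 1.14 (limma adjusted p = 0.0396). The others were not called and gave -0.87 (Dio2), -0.43 (Ppara), -0.14 (Ucp1), -0.12 (Cidea) and 0.00 (Cox7a1). Over all genes 10.2% were called higher and 8.09% lower, which is the background for these marker counts. At an unadjusted limma p under 0.05 it was 2220 of 12393 genes higher and 1740 lower. Control replicate 2 stood apart in the mean of 12 skeletal muscle markers. They averaged 12.23, 12.42 and 11.92 in YY1bKO arrays, against 11.01, 13.30 and 10.77 in control arrays. Limma called 1 of them higher, Myh7, at 1.72 ± 0.23 (SE, adjusted p = 0.00551). Myh7 read 11.20, 11.47 and 10.71 in YY1bKO arrays, against 9.44, 9.06 and 9.71 in control arrays. Here control replicate 2 was the lowest control array. Endothelial markers were lower, with 4 of 6 called and averages of 7.81, 7.67 and 7.85 in YY1bKO arrays, against 8.58, 8.41 and 8.30 in control arrays. Of 8 macrophage, 7 lymphocyte and 5 fibroblast markers measured, limma called 0, with 0, 1 and 0 at an unadjusted p under 0.05, and the 7 lymphocyte markers averaged 5.02 to 5.19 in YY1bKO and 4.84 to 5.03 in control arrays, which is dim. Of 5 white adipocyte markers measured 1 was called lower, Lep, which encodes leptin (-2.00, adjusted p = 0.00881), and Retn, which encodes resistin, gave 1.33 (adjusted p = 0.109). The 15 poly-A control probe sets of the array averaged 6.01, 5.97 and 6.12 in YY1bKO arrays, against 6.31, 6.13 and 6.36 in control arrays, which do not overlap. The Gapdh 3′ control read 13.46, 13.48 and 13.47 in YY1bKO arrays, against 13.16, 13.42 and 13.30 in control arrays, also without overlap. Its 5′ control was likewise higher without overlap. The Actb 3′ control overlapped, with 13.08, 13.02 and 13.06 in YY1bKO arrays, against 13.17, 13.27 and 13.01 in control arrays. The 3′ minus 5′ difference of the Actb control was 1.56, 1.61 and 1.60 in YY1bKO arrays, against 1.65, 0.96 and 1.63 in control arrays, so control replicate 2 stood apart here too. The part of these cell types and controls in the results below was not tested.

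Ribosomal protein transcripts were slightly higher in YY1bKO tissue. Of the 98 probe sets, 37 were called higher and 0 lower by limma at an adjusted p under 0.05, which is 37.8% higher, where 8.83% of all probe sets were called higher and 7.16% lower. Without adjustment, at a limma p under 0.05, 58 were higher and 0 lower. Of all 22626 probe sets 3817 were higher and 3015 lower at that threshold. Counted by gene, with the brightest probe set of each, 20 of 47 were higher and 0 lower, against a background of 10.2% and 8.09% of all genes. At an unadjusted limma p under 0.05, 30 of the 47 were higher and 0 lower. Of all 12393 genes 2220 were higher and 1740 lower at that threshold. The median log2 fold change was 0.25 over the 47 genes and 0.041 over all genes. The differences were small: the quartiles over the member genes were 0.14 and 0.35, and only the 3 probe sets of Rps27l passed 1.5-fold. The count of probe sets called higher was 6 when either YY1bKO replicate 1 or YY1bKO replicate 2 was left out and 7 when YY1bKO replicate 3 was. In those fits 3.57%, 3.67% and 3.85% of all probe sets were called higher. It was 12, 45 and 23 when control replicates 1, 2 and 3 were left out in turn, with 4.43%, 11.5% and 6.67% of all probe sets called higher. The count of genes was likewise 2, 2 and 3 for YY1bKO replicates 1, 2 and 3, and 8, 26 and 7 for control replicates 1, 2 and 3, while the median over genes stayed between 0.23 and 0.30 when any single array was left out. The share of all genes called in those fits is not given here, so these gene counts stand without a background.

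**Figure D1:**
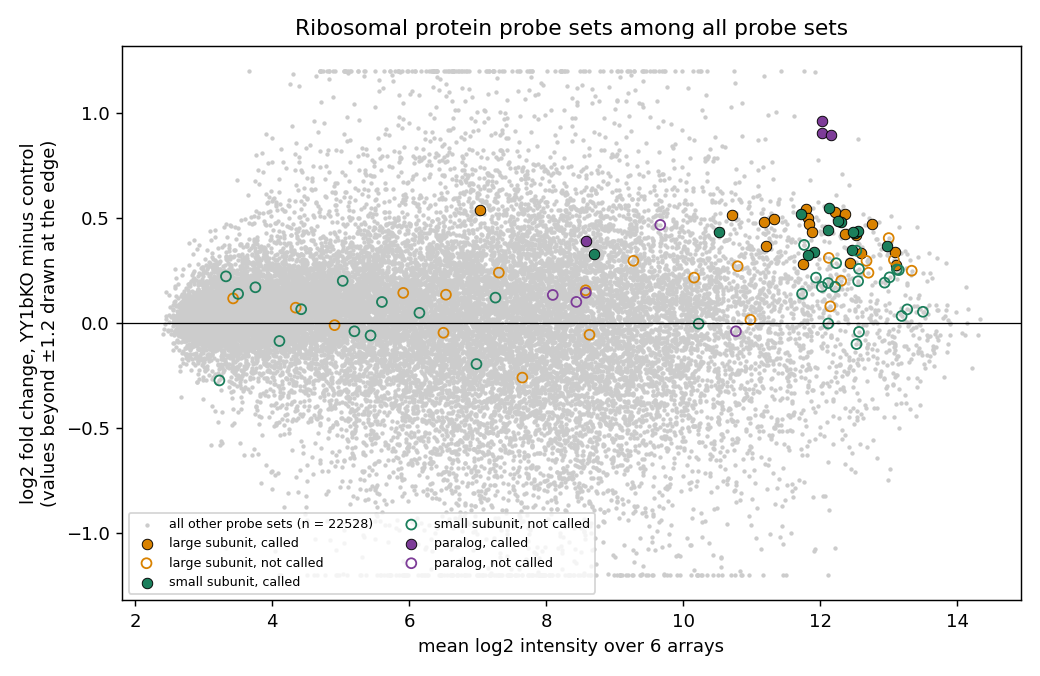
Log2 fold change (YY1bKO minus control) against mean log2 intensity over 6 arrays for each probe set, with the 98 ribosomal protein probe sets coloured by class and filled where called. The called members sit above 0, mostly at intensities over 11, and the 3 Rps27l probe sets lie highest among them at 0.90 to 0.96.

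The calls lay mostly among bright probe sets. Of 60 member probe sets with a mean log2 intensity above 11, 32 were called higher, with a median log2 fold change of 0.34, while 1078 other probe sets of that brightness had 10.0% called higher and a median of 0.001. These 1078 include 72 probe sets that name a ribosomal protein gene together with other genes. By gene, 19 of 33 members above 11 were higher, against 9.05% of 630 other genes. In the middle range, from 7 to 11, 5 of 20 were called higher with a median of 0.19. None of the 18 member probe sets at or below 7 was called, and their median was 0.07. The shares of all probe sets called in the middle and dim ranges are not given here. Calls over the whole array also varied with brightness: 8.83% of all probe sets were called higher, and 15.4% of the 11313 with a mean above 6.48, fitted alone. Several genes have a bright and a dim probe set, and these then gave different values: Rps10 had 5 called probe sets and a dim one at -0.06 ± 0.14 (SE, adjusted p = 0.828), and Rpl41 had a called one at 0.28 and a dim one at -0.01.

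Ribosomal protein genes have many near-identical pseudogene copies, so the signal of these probe sets can include other transcripts. Affymetrix marks probe sets that may bind other transcripts with _s_at or _x_at, and those that bind several transcripts of one gene with _a_at. Of 28 unmarked probe sets 4, or 14.3%, were called higher (Rpl19, Rpl27, Rpl7l1 and Rps6) with a median of 0.13, where 8.83% of all probe sets were called higher. Of 28 marked _a_at 16, or 57.1%, were called higher with a median of 0.34. Of 40 marked _x_at 17, or 42.5%, were called higher with a median of 0.29, and neither of the 2 marked _s_at was called. The unmarked probe sets are mostly dim, with a median log2 intensity of 7.12, and of the 4 above 11, those of Rpl19 and Rpl27 were called while those of Rplp0 and Rps15 were not. A further 102 probe sets outside the rule name a ribosomal protein gene together with other genes, and their median was 0.246. By limma 30 were higher and 0 lower, where 8.83% of all probe sets were higher and 7.16% lower.

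Across arrays the 32 canonical genes with a brightest probe set above 11 were compared as a mean. Their mean log2 intensity was 12.68, 12.67 and 12.64 in YY1bKO arrays, against 12.39, 12.47 and 12.26 in control arrays. All 3 YY1bKO means lie above all 3 control means, and the mean difference of 0.29 compares with a range of 0.21 among the control arrays and 0.04 among the YY1bKO arrays. Control replicate 3 was the lowest control array for 31 of the 32 genes, and control replicate 2, the one with the high muscle marker mean, was the highest for 26. In 28 of the 32 genes all YY1bKO values lay above all control values, where 22.7% of all genes did so. The 1078 other probe sets above 11, with the 72 that name a ribosomal protein gene among others, averaged 12.01, 12.02 and 12.03 in YY1bKO arrays, against 12.06, 12.01 and 12.04 in control arrays. These ranges overlap.

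**Figure D2:**
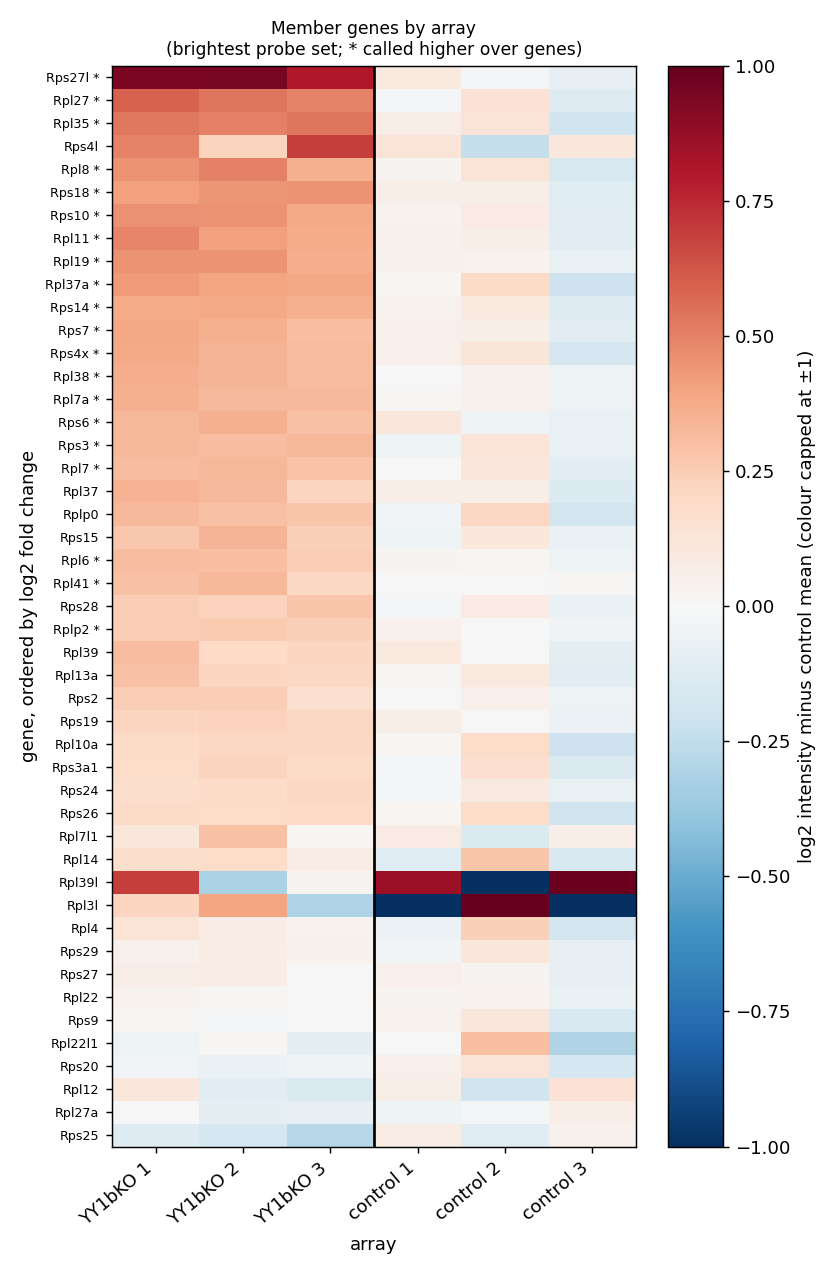
Log2 intensity of the brightest probe set of each of the 47 member genes on each array, minus the control mean of that gene, with YY1bKO arrays left of control arrays and genes ordered by log2 fold change. Colour is capped at 1 and an asterisk marks genes called higher. Most genes are red in all 3 YY1bKO columns, control replicate 3 is the bluest control column for most of them, and Rpl3l and Rpl39l stand out through control replicate 2.

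Rps27l was the member with the largest difference. It encodes a paralog of the small-subunit protein RPS27 and is known as a p53 target gene. Its brightest probe set read 12.65, 12.66 and 12.51 in YY1bKO arrays, against 11.81, 11.70 and 11.63 in control arrays. The groups were far apart relative to their spread, with a fold of 1.86 (log2 fold change 0.90 ± 0.09, SE, adjusted p = 0.002). The other 2 probe sets gave 0.96 ± 0.08 (adjusted p = 0.00124) and 0.91 ± 0.09 (adjusted p = 0.00228), and all 3 kept their calls when any single array was left out, with a largest adjusted p of 0.0164. The 3 probe sets share the target gene, and 2 of them are marked _x_at. For Rps27 only a dim probe set carries a single symbol, at 6.18 in YY1bKO and 6.13 in control tissue, with 0.05 ± 0.08 (adjusted p = 0.73).

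Genes of a p53 target list, chosen with their values in these data known, are given beside Rps27l. Among 11 measured, 5 were called higher and 0 lower, against 10.2% and 8.09% of all genes, with a median of 0.61. At an unadjusted limma p under 0.05, 6 were higher and 0 lower, against 2220 and 1740 of all 12393 genes. The log2 fold change was 1.71 ± 0.22 for Cdkn1a, a cyclin-dependent kinase inhibitor (SE, adjusted p = 0.00473). It was 0.77 ± 0.09 for Mdm2 (adjusted p = 0.00322) and 1.87 ± 0.18 for Zmat3, which encodes an RNA-binding protein (adjusted p = 0.00189). Rpl11, which binds MDM2, read 12.64, 12.55 and 12.52 in YY1bKO arrays, against 12.19, 12.20 and 12.04 in control arrays. Its groups did not overlap, and the log2 fold change was 0.42 ± 0.08 (SE, adjusted p = 0.0184), a call lost without any 1 of the YY1bKO arrays or without control replicate 1. Rpl5 has no probe set with a single symbol here.

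Of 22 large-subunit genes 12 were called higher, against 10.2% of all genes, with a median of 0.29. Of their 41 probe sets 19 were called higher, against 8.83% of all probe sets. Rpl27, a protein of the large subunit, read 12.11, 12.06 and 12.02 in YY1bKO arrays, against 11.50, 11.66 and 11.39 in control arrays. Every YY1bKO value was above every control value, a difference of 0.54 ± 0.09 (SE, adjusted p = 0.0119), and its other 2 probe sets gave 0.51 and 0.48, both called. The call of the first was lost without YY1bKO replicate 1 or 2 (largest adjusted p = 0.0541). Rpl35, which sits near the exit of the peptide tunnel, read 12.63, 12.60 and 12.63 in YY1bKO arrays, against 12.16, 12.23 and 11.90 in control arrays. The groups were separate here too, at 0.52 ± 0.10 (SE, adjusted p = 0.0186), and 5 of its 6 probe sets were called at 0.47 to 0.53, and a dim one gave 0.07. All 5 calls were lost without any 1 of the YY1bKO arrays or without control replicate 1. For Rpl37a, a zinc-binding protein, a probe set in the middle range read 7.38, 7.22 and 7.33 in YY1bKO arrays, against 6.79, 6.81 and 6.71 in control arrays (0.54 ± 0.08, SE, adjusted p = 0.00803), and it kept its call without any single array. Its brightest probe set, at 13.20 in YY1bKO and 12.80 in control tissue, gave 0.40 ± 0.11 (adjusted p = 0.0525), which passed over genes (0.0493).

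The stalk of the large subunit, which recruits elongation factors, is formed by RPLP0 with RPLP1 and RPLP2. Rplp0 read 12.85, 12.82 and 12.80 in YY1bKO arrays, against 12.50, 12.74 and 12.34 in control arrays, and was not called (0.30 ± 0.11, SE, adjusted p = 0.126). For Rplp2 the values were 13.46, 13.47 and 13.45 in YY1bKO arrays, against 13.25, 13.20 and 13.17 in control arrays. That difference of 0.25 ± 0.07 (SE) missed the threshold over probe sets (adjusted p = 0.0586) and passed it over genes (0.0499). Rplp1 has no probe set with a single symbol.

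Of 19 small-subunit genes 7 were called higher, against 10.2% of all genes, with a median of 0.22. Of their 48 probe sets 14 were called higher, against 8.83% of all probe sets. Rps10, whose product lies at the entrance of the mRNA channel, had the largest difference among them: one probe set read 12.43, 12.44 and 12.34 in YY1bKO arrays, against 11.88, 11.94 and 11.74 in control arrays. The groups did not overlap (0.55 ± 0.09, SE, adjusted p = 0.00871) and the call held without any single array, and the other 4 bright probe sets of Rps10 were called at 0.43 to 0.52. Rps6, whose protein is the substrate that gave the S6 kinases their name, read 8.87, 8.89 and 8.83 in YY1bKO arrays, against 8.65, 8.49 and 8.46 in control arrays (0.33 ± 0.08, SE, adjusted p = 0.0404). This call was lost when any of the 6 arrays was left out. Whether the 2 subunits differ was not tested.

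Not every bright member was higher. The genes in the next sentences were chosen after their values were seen. Rps29, a small zinc-binding protein, read 13.51, 13.55 and 13.52 in YY1bKO arrays, against 13.44, 13.58 and 13.38 in control arrays, a log2 fold change of 0.05 with a 95% interval from -0.14 to 0.25. Its groups overlapped in all 3 of its probe sets. Rps20 read 12.56, 12.52 and 12.55 in YY1bKO arrays, against 12.63, 12.71 and 12.41 in control arrays (-0.04, interval -0.27 to 0.19), and all 4 of its probe sets had a negative value, none called. Among these, the ones with mean log2 intensities of 4.11 and 3.23 are dim. Rps9 gave 0.00 in its brightest probe set (interval -0.22 to 0.21), with 12.12 in both groups. Of the 6 Rps24 probe sets, 4 are bright and gave 0.14 to 0.19, with groups that did not overlap and with no call (adjusted p = 0.339 to 0.151). Of all 98 member probe sets, 66 had groups that did not overlap, 2 of them lower and the rest higher, where 21.1% of all probe sets did so higher and 15.0% lower. The log2 fold change was positive for 84 of 98 probe sets, against 56.3% of all probe sets, and for 41 of 47 genes, against 56.9% of all genes. The intervals of Rps29, Rps20 and Rps9 span 0, so a small difference either way cannot be told from none.

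**Figure D3:**
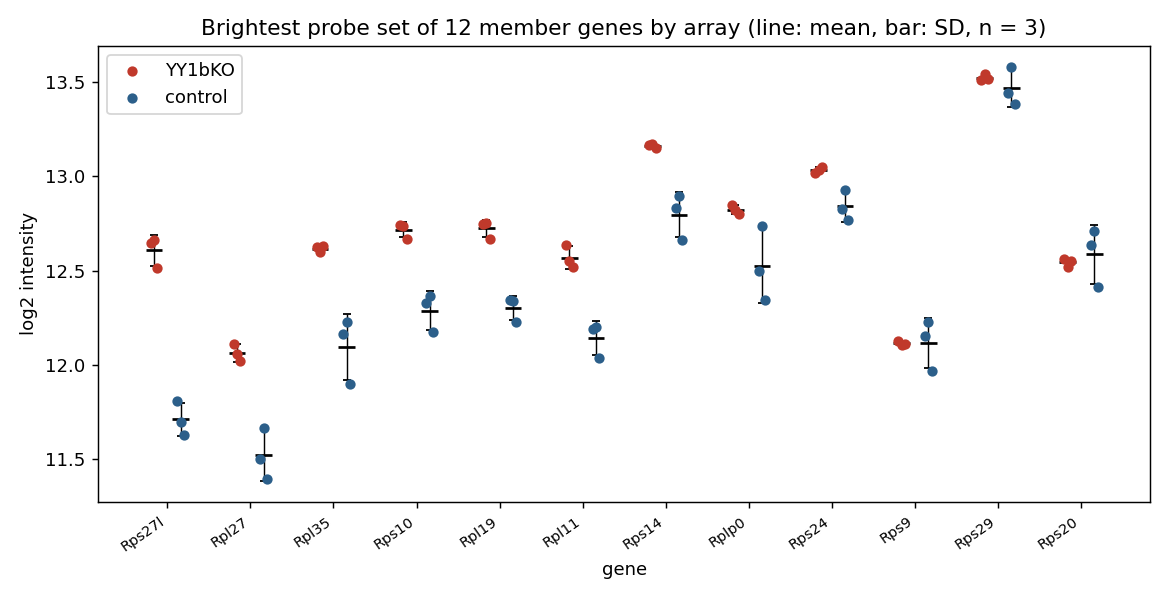
Log2 intensity of the brightest probe set of 12 member genes on each array, YY1bKO left of control for each gene, with the mean as a line and the SD (n = 3) as a bar. Rps27l has the widest gap, the groups of Rpl27, Rpl35, Rps10, Rpl19, Rpl11 and Rps14 are separate, and those of Rps9, Rps29 and Rps20 overlap; levels of different genes are not comparable.

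Among the paralogs Rps27l alone was called in its brightest probe set. Rpl7l1, a paralog of Rpl7 linked to ribosome assembly, had one probe set at 8.78, 8.78 and 8.76 in YY1bKO arrays, against 8.37, 8.39 and 8.38 in control arrays. That probe set rose by 0.39 ± 0.07 (SE, adjusted p = 0.0129), a call lost without any 1 of the YY1bKO arrays, while the other, equally bright, gave 0.14 ± 0.11 with overlapping groups (adjusted p = 0.424). Rpl7 itself had 1 called probe set of 3, at 0.37 ± 0.10 (SE, adjusted p = 0.0445), lost without any single array other than control replicate 2. Rps4l gave 0.47 ± 0.15 (SE, adjusted p = 0.0882), with 9.92, 9.65 and 10.12 in YY1bKO arrays, against 9.56, 9.19 and 9.54 in control arrays, and its partner Rps4x 0.34 ± 0.10 (adjusted p = 0.0538, and 0.0493 over genes) in its bright probe set. Rpl22 and its paralog Rpl22l1, whose levels are known to be tied through repression of Rpl22l1 by RPL22, gave 0.02 ± 0.07 (adjusted p = 0.915) and -0.04 ± 0.15 (adjusted p = 0.896). A second Rpl22 probe set, marked _s_at, read 7.57, 7.40 and 7.60 in YY1bKO arrays, against 7.61, 8.04 and 7.69 in control arrays. These groups did not overlap, and the value of -0.26 ± 0.13 was not called (SE, adjusted p = 0.236).

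A pair of paralogs varied among the control arrays more than between groups. Rpl3l, the form of RPL3 found in striated muscle, read 8.60, 8.79 and 8.08 in YY1bKO arrays, against 7.24, 10.76 and 7.18 in control arrays. Control replicate 2, which also had the highest muscle marker mean, was the highest of all 6, and the difference between groups was 0.10 ± 0.92 (SE, adjusted p = 0.958). Without that array it was 1.28 and was called higher (adjusted p = 0.00577). Rpl39l, a paralog of Rpl39 best known from testis, read 8.72, 7.71 and 8.06 in YY1bKO arrays, against 8.88, 6.19 and 9.01 in control arrays. Here control replicate 2 was the lowest of the 6, and the difference was 0.13 ± 0.74 (SE, adjusted p = 0.929), or -0.78 (adjusted p = 0.0782) without that array. Rpl39 gave 0.24 ± 0.08 with groups that did not overlap (adjusted p = 0.106).

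**Figure D4:**
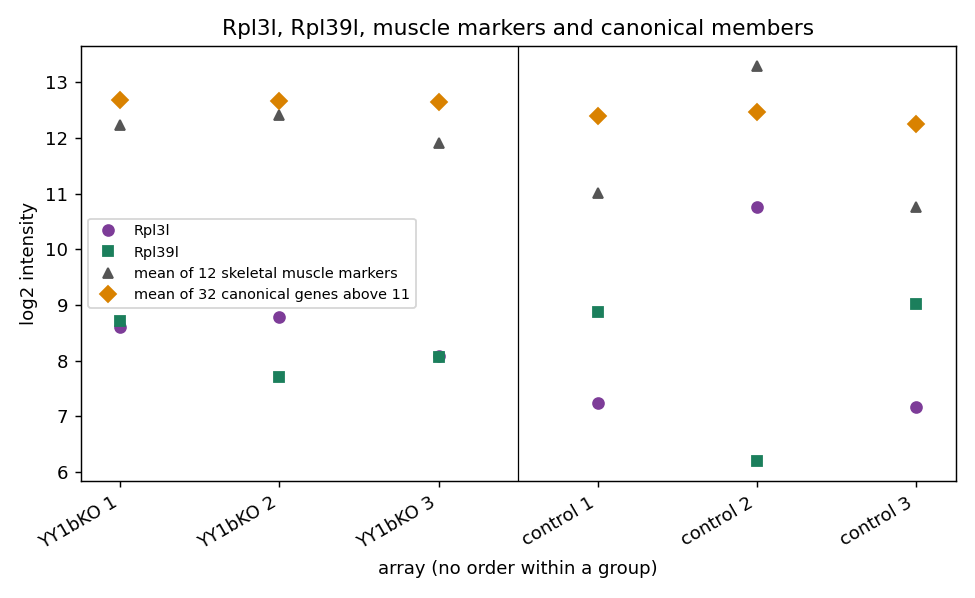
Log2 intensity of Rpl3l and Rpl39l, the mean of 12 skeletal muscle markers and the mean of 32 bright canonical ribosomal protein genes on each array, YY1bKO left of control. Control replicate 2 has the highest muscle marker mean, the highest Rpl3l value, 10.76, and the lowest Rpl39l value, 6.19, while the canonical genes stay between 12.26 and 12.68.

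Promoters were compared since Yin Yang 1 binds DNA. RefSeq promoters of build GRCm38.p6, 250 bases before and 50 after each annotated start, were matched by symbol for 41 of the 47 genes. The core of the Yin Yang 1 motif, ATGGCG on either strand, occurred in 16 of them, or 39.0%, where 15.0% of the 9887 array genes with a promoter and 10.2% of all genes in the table held it. It was present in 8 of 18 genes with a probe set called higher and in 8 of 23 without. In Rpl11, Rpl13a, Rpl22l1, Rpl27a, Rpl39l, Rpl41, Rpl7l1, Rps18 and Rps25 it occurred only after the start, at positions 15 to 42. Whether those matches lie in coding sequence was not examined. The ETS motif CCGGAAG, bound by GABP, occurred in 20 of the 41, or 48.8%, against 16.3% of the array genes, and in 11 of the 18 and 9 of the 23. The letters of these motifs cannot overlap each other on either strand, and a match is a description of the sequence, not of binding.

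Sequences are shown for the 2 annotated starts of Rps27l, the largest rise, for Rpl27 and Rps10, large rises of each subunit, for Rpl7l1 and Rps28, which hold the Yin Yang 1 core near the start, and for Rps9, which was not called. Rps28 and Rps9 were chosen after their values were seen. Each runs 5′ to 3′ on the gene's strand over 90 bases before the start and 30 after it, with the ATGGCG and CCGGAAG matches, on either strand, in capitals.
Rps27l, upstream start, chr9:66945996-66946115, plus strand: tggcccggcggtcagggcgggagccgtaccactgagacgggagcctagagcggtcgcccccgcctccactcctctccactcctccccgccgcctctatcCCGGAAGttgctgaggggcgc
Rps27l, downstream start, chr9:66946323-66946442, plus strand: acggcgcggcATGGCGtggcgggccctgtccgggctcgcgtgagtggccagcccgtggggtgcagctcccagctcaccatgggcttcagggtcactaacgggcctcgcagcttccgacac
Rpl27, chr11:101442155-101442274, plus strand: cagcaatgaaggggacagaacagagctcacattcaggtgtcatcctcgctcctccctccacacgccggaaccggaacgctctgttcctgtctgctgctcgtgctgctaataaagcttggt
Rps10, chr17:27635215-27635334, minus strand: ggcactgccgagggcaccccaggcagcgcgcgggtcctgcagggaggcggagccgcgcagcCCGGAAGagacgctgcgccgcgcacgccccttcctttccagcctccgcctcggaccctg
Rpl7l1, chr17:46782627-46782746, minus strand: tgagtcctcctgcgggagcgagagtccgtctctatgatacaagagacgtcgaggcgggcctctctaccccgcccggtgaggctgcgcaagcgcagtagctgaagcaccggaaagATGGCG
Rps28, chr17:33824533-33824652, minus strand: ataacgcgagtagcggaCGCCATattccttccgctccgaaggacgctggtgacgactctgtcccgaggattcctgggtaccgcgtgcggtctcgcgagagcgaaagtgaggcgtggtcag
Rps9, chr7:3703951-3704070, plus strand: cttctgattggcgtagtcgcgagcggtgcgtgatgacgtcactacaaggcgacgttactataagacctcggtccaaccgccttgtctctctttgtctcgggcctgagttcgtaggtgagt
Rps28, with the core at position -73 from the start, had 3 probe sets at 0.25 to 0.26, none called (adjusted p = 0.0712 to 0.0991). Called genes were found both with the core, such as Rps27l, Rpl11, Rpl38 and Rps18, and without it, such as Rps10 and Rpl27.

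Genes around the ribosome gave a mixed picture, counted over genes against the background of 10.2% higher and 8.09% lower. Fau, which encodes the small-subunit protein RPS30 fused to a ubiquitin-like part, rose by 0.39 ± 0.08 (SE, adjusted p = 0.0192), and Rpsa, a small-subunit protein with another name, gave 0.26 ± 0.08 (adjusted p = 0.0653). Of 19 other genes whose mRNAs start with an oligopyrimidine tract or that serve translation, 2 were higher and 1 lower, with a median of 0.02. The higher ones were Npm1, a nucleolar chaperone of ribosome assembly (0.53 ± 0.08, adjusted p = 0.00663), and Cct4, a chaperonin subunit (0.44 ± 0.09, adjusted p = 0.0199), and the lower one was Hnrnpa1, a splicing protein (-0.37 ± 0.08, adjusted p = 0.0264). Chosen after their values were seen, the elongation factor gene Eef1a1 gave 0.05 ± 0.09 (adjusted p = 0.752) and Tpt1, which has one of the best known oligopyrimidine mRNAs, 0.00 ± 0.08 (adjusted p = 0.996).

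In the list of S6 kinases and mTORC1 genes, 2 of 15 were lower and 0 higher by limma (6 and 1 at an unadjusted p under 0.05), with a median of -0.19. Of all 12393 genes 1740 were lower and 2220 higher at that unadjusted p, the background for the unadjusted counts in this paragraph. Eif4ebp1, the translation repressor that mTORC1 phosphorylates, fell by 0.65 ± 0.13 (SE, adjusted p = 0.0176), with 10.83, 10.90 and 11.06 in YY1bKO arrays, against 11.70, 11.33 and 11.71 in control arrays. Deptor, an inhibitor of mTOR, fell by 0.87 ± 0.20 (adjusted p = 0.0288), with 10.83, 11.12 and 11.07 in YY1bKO arrays, against 11.99, 11.44 and 12.22 in control arrays. In both genes the groups did not overlap. The S6-phosphorylating kinase family member Rps6ka3 gave -0.60 ± 0.17 (adjusted p = 0.0527). Among 14 genes of ribosome quality control, which rescue stalled ribosomes, 2 were lower and 0 higher (3 and 2 at an unadjusted p under 0.05): Hbs1l, a rescue factor (-0.45 ± 0.08, adjusted p = 0.0103), and Gigyf2, a repressor of stalled mRNAs (-0.37 ± 0.10, adjusted p = 0.0471). Over these lists and the p53 targets together 8 genes were higher and 5 lower, and leaving out YY1bKO replicate 1 or 2 left 4 and 1, YY1bKO replicate 3 6 and 2, control replicate 1 6 and 1, control replicate 2 11 and 10, and control replicate 3 5 and 3.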

How the data were processed

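One Affymetrix array a sample was analysed for 3 YY1bKO and 3 control samples. RMA is the tool the submitters' processing notes name, with software, version and options not given in the sources used here. The authors deposited intensities on a linear scale, from 4.91 to 21219, read here as back-transformed. These were converted to log2 without a pseudocount. The 64 Affymetrix control probe sets were left out. Gene symbols come from the platform annotation.

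Fits used limma 3.58.1 in R 4.3.3 (lmFit, eBayes) with group as the sole term, over all 22626 probe sets and, separately, over 12393 genes with the brightest single-symbol probe set each. Tests were two-sided, with Benjamini-Hochberg adjustment and a threshold of 0.05. Adjusted p-values of members and of Yy1 are from the fit over probe sets, and those of other genes from the fit over genes. SE is limma's moderated standard error. Arrays give no count depth, and their number limits the precision. The scripts were tested on simulated data. The members and lists were chosen with earlier results of these data known.

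Genes were named by a rule: Yy1, the 12 largest rises and 12 largest falls among called member probe sets whose groups do not overlap (there were 0 falls), paralogs and their partners, Rplp0, Rplp2, Rpl11, Rps6, genes with a called probe set and one of opposite sign, and up to 3 genes of each related list by smallest p. Other genes in the text or in the figures are examples of a count or were chosen after their values were seen. Same-numbered arrays of both groups correlated at -0.231, 0.089 and 0.235 in their deviations from the group means. With so few arrays these values cannot show whether the numbers pair them, and the labels state no pairing. Alternatives were other scaling, dim probe sets left out, eBayes with trend, array weights, a block for replicate number, a fold of 1.5, the mean over probe sets of a gene, marked probe sets left out, and each array left out.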

Additional observations from a re-analysis of the deposited data

How the results depend on the processing

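The count of member probe sets called higher was 37, and 0 were called lower there and in each of the alternatives run. It was 6 to 45 when 1 array was left out, 3 with a fold of at least 1.5, and 4 when probe sets marked _a_at, _s_at or _x_at were left out, which leaves 28 probe sets. With the replicate block it was 19, of which 18 were among the 37. Of all probe sets 8.83% were called higher, 4.9% with the block and 3.57% to 11.5% without 1 array. The count of member genes called higher was 20, and 2 to 26 when 1 array was left out, 7 with the replicate block and 1 with a fold of at least 1.5. Shares of all genes in these alternatives, and of all probe sets at 1.5-fold, are not given here. The median log2 fold change of the member genes was 0.25, from 0.23 to 0.30 without 1 array, and 0.12 when marked probe sets were left out. The related lists, 8 higher and 5 lower, gave 5 and 2 with the replicate block, 4 and 2 with a fold of at least 1.5, and 12 and 12 with array weights. Leaving out 1 array gave 4 to 11 higher and 1 to 10 lower. The labels do not say that the replicate numbers pair the arrays, so the block is a check of the fit. Signs were followed for the 40 member probe sets named by the rule, and turned only in ones not called with all 6 arrays. Other members, such as those of Rps20 and Rps9, were not followed in this way. With quantile normalization Rpl22l1 gave 0.00, and with array weights Rpl22l1 gave 0.01 and Rpl39l -0.46. Without 1 array the values spanned -0.02 to 0.03 for Rpl22, -0.19 to 0.11 for Rpl22l1, -0.13 to 0.02 for the dim Rps4x probe set, -0.78 to 0.63 for Rpl39l, -0.09 to 0.05 for the dim Rpl41 probe set, -0.15 to 0.05 for the dim Rps10 probe set and -0.51 to 1.28 for Rpl3l, which was called without control replicate 2 (adjusted p = 0.00577). Residual degrees of freedom are fewer with an array left out or a block added, and other causes of the lost calls were not tested. Of the 37 called probe sets, 5 kept their call in all 6 fits without 1 array, the 3 of Rps27l, 1 of Rpl37a and 1 of Rps10.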
